A study of Mus musculus with 6 samples.

Results

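The 10 genes described here are components and targets of the Notch pathway measured in a lung EC (endothelial cell) preparation. They were listed by name, with earlier results of these data known. They are the receptors Notch1, Notch2 and Notch4, the ligands Dll1, Dll4, Jag1 and Jag2, and the target genes Hes1, Hey1 and Nrarp. They are 10 of the 24063 gene symbols in the deposited tables, each is represented by 1 RefSeq transcript, and all 10 had enough reads to be tested.

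The study asked how obesity and adiponectin affect regrowth of the lung after unilateral pneumonectomy (PNX), the removal of 1 lung. A part of it compared gene expression in lung ECs between PNX and sham operation. RNA of CD31+ cells was sequenced as 3 libraries from sham-operated mice, which had a thoracotomy without PNX, and 3 libraries from mice 7 days after PNX. All mice were male C57BL6 mice with no other genetic change named, and each library was pooled from 2 mice. The labels give an age of 8 weeks, while the study's methods give an older range at surgery. The cells were taken from digested lung with anti-CD31 magnetic beads, so that the population held the ECs of every vessel type together with any cell carried along by the beads.

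Notch receptors are transmembrane proteins that are cut when a ligand on a neighbouring cell binds and pulls on them, and the freed intracellular part joins the DNA-binding protein Rbpj in the nucleus and switches on target genes. In blood vessels, Dll4 signalling through Notch1 marks arterial ECs and restrains sprouting, while Jag1 counteracts Dll4 at the sprouting front, and Hey1 is a repressor that Notch induces in arterial ECs. The same ligands, receptors and targets also act in other lung cells, among them epithelial cells and pericytes.

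Replicates 1 and 2 of each group, which the labels mark as re-used copies of records deposited earlier, differed from each other by little more than counting error. A chi-square of their counts was 1.75 per degree of freedom in sham and 1.57 in PNX, against 68.0 to 87.1 for pairs with replicate 3. They were therefore summed and counted as 1 sample, which leaves 2 samples per group, called here the re-used sample (replicates 1 and 2) and the replicate 3 sample. Total counts were 65763553 to 81282871 in the re-used libraries and 29526989 to 33374216 in the replicate 3 libraries. Each of the 10 genes had between 655 and 18736 reads in every library, and counting error alone is 3.91% at the lowest of these. All 15 endothelial markers checked, Pecam1 and Cdh5 among them, were present in every library, with a summed level of 11290 to 15749 CPM (the count scaled to the library size). Markers of alveolar type 1 cells (778 to 5247 CPM for 7 genes), alveolar type 2 cells (2204 to 6073 CPM for 10 genes) and macrophages (3249 to 6313 CPM for 9 genes) were also present in every library.

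None of the 10 Notch genes was called changed after PNX. A call was an adjusted p under 0.01 with a log2 fold change beyond 1 in edgeR's quasi-likelihood test on the 4 samples. This fit called 0 of 16598 genes in all, so its background share was 0%. At an unadjusted p under 0.05 it listed 0 of the 10 Notch genes and 2076 genes in the whole table, and the lowest adjusted p of any gene was 0.0720. As alternative tools, limma-voom gave 0 calls and DESeq2 587, with none of the 10 genes among them. When the difference between the re-used and the replicate 3 samples was fitted as a replicate block, edgeR called 849 genes, 5.12% of those tested, of which 645 were higher and 204 (1.23%) lower after PNX. Scaled to the summed endothelial markers instead of by TMM, the same fit called 697 genes higher and 12 lower. None of the 10 Notch genes was among the calls under either scaling.

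At the looser threshold of an adjusted p under 0.05 at any fold change, the fit with the replicate block listed Hey1 and Dll4, both lower after PNX. Thus 2 of the 10 Notch genes passed, against 21.6% of all genes (10.1% lower and 11.5% higher), a share near the background. With the block, 3 of the 10 had a positive log2 fold change, and 7 of the 10 when libraries were scaled to the summed endothelial markers, which put the median of all genes at 0.23. The median over the 10 genes was -0.16, against -0.01 over all genes tested, and the median size of the change irrespective of direction was 0.19 for the 10 genes and 0.22 for all genes. No Notch gene had both PNX samples on one side of both sham samples, a pattern that 21.2% of all genes showed downwards and 21.6% upwards. In RNA from a cell population, fewer cells of a type and less RNA per cell cannot be told apart.

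**Figure D1:**
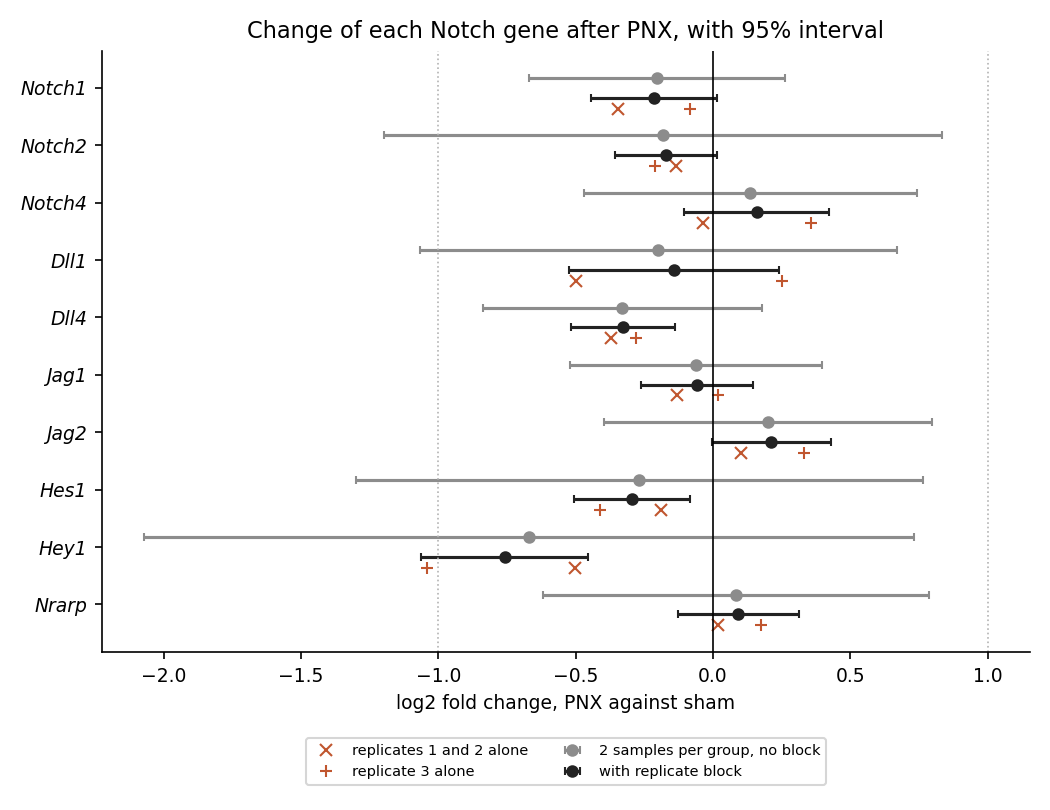
The plot gives the log2 fold change (PNX against sham) of each Notch gene with its 95% interval, in grey without and in black with the replicate block, and the log2 ratio within replicates 1 and 2 (crosses) and within replicate 3 (plus signs). Without the block all 10 intervals hold 0. With it the intervals of Dll4, Hes1 and Hey1 lie below 0, and Hey1 is farthest from it at -0.76. Dotted lines mark a log2 fold change of 1 in either direction.

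Among the receptors, none passed at either threshold. Notch1 (chr2:26457903-26516663, minus strand, GRCm38), the receptor through which Dll4 acts in ECs, measured 206, 212 and 225 CPM in sham replicates 1 to 3 and 166, 162 and 212 CPM in PNX replicates 1 to 3. The PNX libraries of replicates 1 and 2 were lower than any sham library, while PNX replicate 3 lay within the sham range. Averaged over samples, Notch1 stood at 217 ± 11.4 CPM for sham and at 188 ± 34.1 CPM for PNX (SD, n = 2). The log2 fold change of Notch1 was -0.20 (SE 0.18, 95% interval -0.67 to 0.26, adjusted p = 0.737, edgeR) without the block and -0.22 (SE 0.10, adjusted p = 0.163) with it.

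Notch2 (chr3:98013527-98150361, plus strand), a receptor that many lung cell types share, measured 73.1, 75.4 and 133 CPM in the sham libraries. In the PNX libraries it measured 67.2, 68.1 and 115 CPM. Replicate 3 of both groups was far above the other libraries, so that the groups overlapped widely (sham 104 ± 41.9 CPM, PNX 91.6 ± 33.8 CPM, SD, n = 2). Within each pair of samples PNX was slightly below sham, with log2 ratios of -0.13 and -0.21. For Notch2 the fitted log2 fold change was -0.18 (SE 0.39, 95% interval -1.20 to 0.83, adjusted p = 0.916, edgeR) and -0.17 (SE 0.08, adjusted p = 0.173) with the replicate block.

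Notch4 (chr17:34564268-34588503, plus strand), the receptor whose expression is most restricted to ECs, measured 235, 239 and 159 CPM in the sham libraries. The PNX libraries gave 230, 232 and 204 CPM. The re-used libraries of both groups lay close together, and the 2 replicate 3 libraries were the lowest of their groups. The log2 ratio of PNX to sham was -0.03 in the re-used samples and 0.36 in the replicate 3 samples, that is, in opposite directions. The log2 fold change of Notch4 was 0.14 (SE 0.23, 95% interval -0.47 to 0.74, adjusted p = 0.888, edgeR) and 0.16 (SE 0.11, adjusted p = 0.353) with the block.

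**Figure D2:**
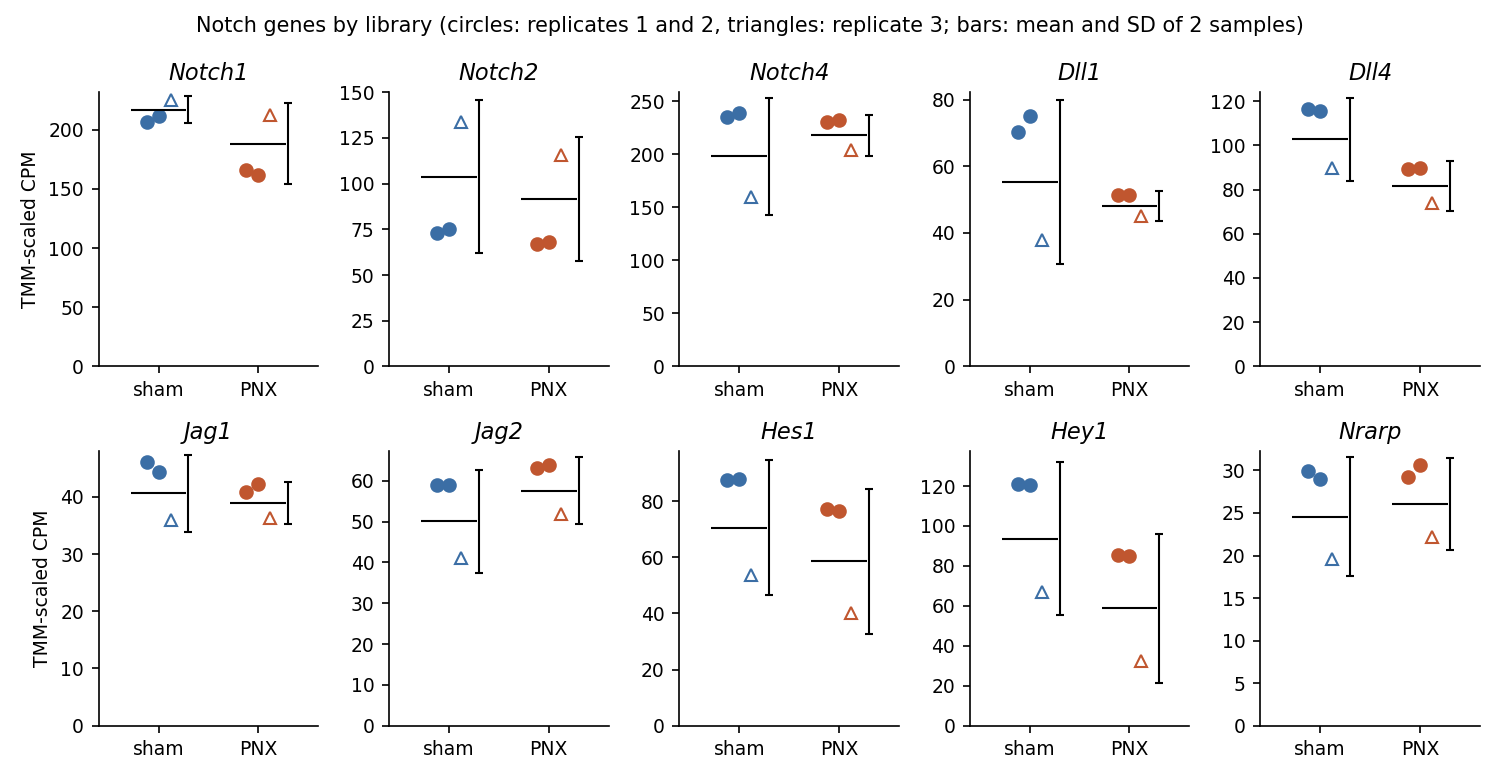
Each panel plots 1 Notch gene as TMM-scaled CPM (vertical axis from 0) in the 3 sham (blue) and 3 PNX (orange) libraries. Circles are replicates 1 and 2, triangles are replicate 3, and the bars are the mean and SD of the 2 samples per group. Replicate 3 (triangles) lies below replicates 1 and 2 in both groups for 8 of the 10 genes, and above them for Notch1 and Notch2.

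Among the ligands, Dll4 was lower after PNX in both pairs of samples, and Dll1, Jag1 and Jag2 did not pass at either threshold. Dll4 (chr2:119325784-119335962, plus strand), the delta-like ligand of arterial and sprouting ECs, measured 116, 116 and 89.5 CPM in the sham libraries. The PNX libraries gave 89.5, 89.9 and 73.8 CPM. The re-used PNX libraries thus lay level with sham replicate 3, and PNX replicate 3 was the lowest of all 6. Averaged over samples, Dll4 stood at 103 ± 18.8 CPM for sham and at 81.7 ± 11.2 CPM for PNX (SD, n = 2), a ratio of 0.773 in the re-used samples and 0.824 in the replicate 3 samples. The log2 fold change of Dll4 was -0.33 (SE 0.19, 95% interval -0.84 to 0.18, adjusted p = 0.589, edgeR) without the block and -0.33 (SE 0.08, 95% interval -0.52 to -0.14, adjusted p = 0.0279) with it. With the block, the adjusted p of Dll4 ranged from 0.0240 to 0.0374 when replicate 1 or 2 of a group was left out. It was 0.0678 in DESeq2 with the block. With no block, the log2 fold change of Dll4 was -0.49 without sham replicate 3 and -0.20 without PNX replicate 3. When libraries were scaled to the summed endothelial markers, which are themselves lower in PNX, the blocked log2 fold change of Dll4 was -0.09 (adjusted p = 0.477, edgeR).

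The bases before the Dll4 start are printed here because Dll4 is 1 of the 2 genes that passed at the looser threshold, beside those of Nrarp, a target that did not pass. For 8 of the 10 genes the RefSeq promoter table (GRCm38.p6) gave 9 windows of 250 bases directly before an annotated start. It gave none for Hes1 and Hey1. The Dll4 window is chr2:119325534-119325783 and the Nrarp window chr2:25180508-25180757, both on the plus strand. In Dll4 the capitals mark GC boxes, the letters that Sp1-type factors bind, which read GGGCGG on the strand shown and would read CCGCCC on the opposite strand. In Nrarp the capitals mark the E-box CACGTG, which reads the same on both strands and is a sequence that Hes and Hey proteins can bind.
Dll4: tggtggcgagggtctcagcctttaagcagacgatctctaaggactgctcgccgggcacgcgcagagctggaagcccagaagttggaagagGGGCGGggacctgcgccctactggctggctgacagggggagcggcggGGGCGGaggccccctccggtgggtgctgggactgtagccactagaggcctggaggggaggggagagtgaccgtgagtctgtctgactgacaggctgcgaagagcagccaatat
Nrarp: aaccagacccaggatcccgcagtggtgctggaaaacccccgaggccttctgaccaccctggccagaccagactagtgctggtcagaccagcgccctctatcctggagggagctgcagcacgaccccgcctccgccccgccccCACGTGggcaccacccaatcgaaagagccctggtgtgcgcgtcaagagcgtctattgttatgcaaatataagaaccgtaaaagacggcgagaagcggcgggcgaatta

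The GC box occurred in the windows of Dll4, Jag2, Notch1, Notch2 and Nrarp, and in 32.7% of all 32851 windows of that length. CACGTG occurred in the Nrarp window alone of the 9, and in 6.02% of all windows. The core that Rbpj recognises, TTCCCA when read on one strand and TGGGAA when read on the other, was in 0 of the 9 windows and in 21.6% of all windows. The targets Hes1 and Hey1, which had no window, were not examined for it. These windows hold no more than the bases just before a start. Motifs of different kinds did not overlap one another (0 overlaps), while GC boxes overlapped each other in the Nrarp window. The windows of Dll4 and Nrarp were 65.6% and 61.2% GC, against a median of 52.4% over all windows.

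Dll1 (chr17:15367354-15376872, minus strand), a delta-like ligand used in arterial ECs and in other lineages, measured 70.3, 75.1 and 37.8 CPM in the sham libraries. In the PNX libraries it measured 51.4, 51.3 and 45.0 CPM. Sham replicate 3 was the lowest of the 6 libraries and sham replicates 1 and 2 the highest, so that all PNX libraries lay inside the sham range. The log2 ratio was -0.50 in the re-used samples and 0.25 in the replicate 3 samples. In the fit, Dll1 had a log2 fold change of -0.20 (SE 0.33, 95% interval -1.07 to 0.67, adjusted p = 0.886, edgeR) and -0.14 (SE 0.16, adjusted p = 0.583) with the block. With no block it was -0.58 without sham replicate 3 and -0.11 without PNX replicate 3.

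Jag1 (chr2:137081456-137116644, minus strand), the jagged ligand that opposes Dll4 in sprouting ECs, measured 46.2, 44.4 and 35.9 CPM in the sham libraries. After PNX the libraries measured 40.9, 42.2 and 36.4 CPM. The 3 PNX libraries lay inside the sham range, and the replicate 3 libraries of both groups were nearly level. Jag1 had a fitted log2 fold change of -0.06 (SE 0.18, 95% interval -0.52 to 0.40, adjusted p = 0.941, edgeR), the smallest of the 10, and -0.06 (SE 0.09, 95% interval -0.26 to 0.15, adjusted p = 0.680) with the block.

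Jag2 (chr12:112907819-112929776, minus strand), the second jagged ligand, measured 59.0, 59.0 and 41.1 CPM in the sham libraries. After PNX the libraries measured 63.0, 63.8 and 51.8 CPM. PNX was above sham within each pair of samples, by log2 ratios of 0.10 and 0.33, but PNX replicate 3 was below the re-used sham libraries. For Jag2 the fitted log2 fold change was 0.20 (SE 0.23, 95% interval -0.40 to 0.80, adjusted p = 0.806, edgeR) and 0.21 (SE 0.09, adjusted p = 0.144) with the replicate block. Scaling to the endothelial markers with the block gave Jag2 a log2 fold change of 0.46 (adjusted p = 0.0198, edgeR) and Notch4 one of 0.40 (adjusted p = 0.0359, edgeR).

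Among the targets, Hey1 was lower after PNX in both pairs of samples and had the largest log2 fold change of the 10 genes. Hey1 (chr3:8663359-8667256, minus strand), a basic helix-loop-helix repressor of arterial ECs, measured 121, 120 and 66.7 CPM in the sham libraries. The PNX libraries gave 85.5, 85.0 and 32.4 CPM. Each PNX library was below its sham counterpart, but the re-used PNX libraries were above sham replicate 3, so that the groups overlapped (sham 93.7 ± 38.2 CPM, PNX 58.8 ± 37.4 CPM, SD, n = 2). PNX was 0.706 of sham in the re-used samples and 0.486 of sham in the replicate 3 samples.

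Without the block the log2 fold change of Hey1 was -0.67 (SE 0.54, 95% interval -2.07 to 0.73, adjusted p = 0.708, edgeR), and with the replicate block -0.76 (SE 0.13, 95% interval -1.06 to -0.45, adjusted p = 0.00703, edgeR), short of the fold change needed for a call. With the block, leaving out 1 library gave Hey1 an adjusted p (edgeR) of 0.0152 for sham replicate 1, 0.0154 for sham replicate 2, 0.0320 for PNX replicate 1 and 0.00664 for PNX replicate 2. It was 0.000143 in DESeq2 and 0.00531 in limma-voom, both with the block. Scaled to the endothelial markers with the block, the log2 fold change of Hey1 was -0.52 (adjusted p = 0.0763, edgeR). Without PNX replicate 3 and with no block it was -0.14, and without sham replicate 3 it was -1.01.

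Hes1 (chr16:30064384-30067796, plus strand), a repressor of the same protein family that answers to Notch in many cell types, measured 87.5, 87.7 and 53.5 CPM in the sham libraries. Its PNX libraries gave 77.0, 76.5 and 40.3 CPM. PNX was below sham within each pair of samples, by log2 ratios of -0.19 and -0.41, while the re-used PNX libraries stood above sham replicate 3. Hes1 had a log2 fold change of -0.27 (SE 0.40, 95% interval -1.30 to 0.76, adjusted p = 0.863, edgeR) without the block. With it the value was -0.29 (SE 0.09, 95% interval -0.51 to -0.08, adjusted p = 0.0565, edgeR), which did not pass.

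Nrarp (chr2:25180758-25183339, plus strand), a small ankyrin-repeat protein that Notch induces and that dampens Notch signalling in turn, measured 29.9, 29.0 and 19.6 CPM in the sham libraries. Its PNX libraries gave 29.3, 30.6 and 22.2 CPM. The re-used libraries of the groups overlapped one another and the 2 replicate 3 libraries were the lowest. In the fit, Nrarp had a log2 fold change of 0.08 (SE 0.27, 95% interval -0.62 to 0.79, adjusted p = 0.947, edgeR) and 0.09 (SE 0.09, 95% interval -0.13 to 0.31, adjusted p = 0.528) with the block.

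In the annotation (GENCODE vM21), Notch1, Notch4, Dll1, Dll4 and Nrarp each overlap at least 1 gene on the opposite strand, for Dll1 A930024N18Rik, for Dll4 Gm14207 and for Nrarp Gm38287. The libraries were stranded, but whether the counting used the strand is not given in the sources used here. Jag1, Hes1 and Hey1 overlap no annotated gene.

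Levels can be compared between genes only per transcript length, here as the deposited TPM. In the sham CD31+ preparations, which also held epithelial and macrophage RNA, the targets Hes1 (122 ± 41.1 TPM, SD, n = 2) and Hey1 (106 ± 42.9 TPM) stood highest and Jag1 (18.5 ± 2.96 TPM) lowest. The endothelial receptor Notch4 (75.1 ± 20.6 TPM) and the ligand Dll4 (74.6 ± 13.3 TPM) followed the targets, above Notch1 (57.3 ± 3.22 TPM) and Dll1 (40.4 ± 17.9 TPM). Jag2 (30.9 ± 7.68 TPM), Notch2 (24.8 ± 10.1 TPM) and Nrarp (23.9 ± 6.68 TPM) came next. Of the neighbours in this order, the sham samples did not overlap for Dll4 and Notch1 or for Notch1 and Dll1, and they overlapped for every other neighbouring pair.

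After PNX the order of the TPM means was Hes1 (101 ± 43.8), Notch4 (82.3 ± 6.79), Hey1 (66.5 ± 41.9), Dll4 (59.2 ± 7.78), Notch1 (49.6 ± 9.30), Jag2 (35.5 ± 4.86), Dll1 (35.1 ± 3.07), Nrarp (25.3 ± 5.18), Notch2 (21.8 ± 8.17) and Jag1 (17.7 ± 1.54; SD, n = 2). Hes1 ranked 1 in 5 of the 6 libraries and Hey1 ranked 2 in 5. In PNX replicate 3 Notch4 ranked 1 and Hey1 only 5. Notch2 ranked 10 in the re-used libraries, and 6 and 8 in the replicate 3 libraries of sham and PNX.

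**Figure D3:**
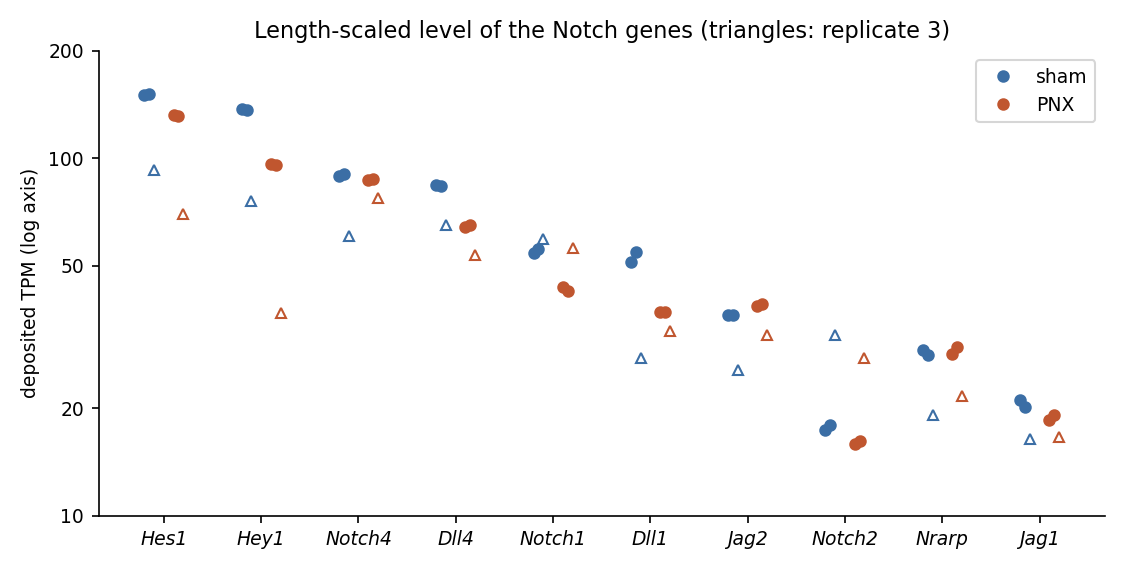
The deposited TPM of each Notch gene (log axis) is plotted by library, with sham in blue, PNX in orange, circles for replicates 1 and 2 and triangles for replicate 3. Genes are in the order of their sham means, from Hes1 at 122 TPM to Jag1 at 18.5 TPM. The triangle of Hey1 in PNX lies at 36.9 TPM, far below its circles.

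The difference between replicate 3 and the re-used samples was larger for most Notch genes than that between PNX and sham. In the fit with the replicate block, 8 of the 10 genes differed between the replicate 3 and the re-used samples at an adjusted p under 0.05 (edgeR), against 26.3% of all genes, and all 10 went the same way in sham and in PNX. Hey1 was lower in replicate 3 by a log2 difference of -1.12 (adjusted p = 0.00182, edgeR) and Hes1 by -0.82 (adjusted p = 0.00154, edgeR). Notch2 was higher in replicate 3 by 0.81 (adjusted p = 0.00110, edgeR). The other genes that passed were Dll1 (-0.57), Nrarp (-0.51), Jag2 (-0.41), Notch4 (-0.38) and Dll4 (-0.33), all lower in replicate 3. Jag1 (-0.26, adjusted p = 0.0631, edgeR) and Notch1 (0.24, adjusted p = 0.113, edgeR) did not pass.

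The summed alveolar type 1 markers and the summed arterial markers had the same order as Hey1 across the samples, an order that not every marker list shared. The summed level of 7 alveolar type 1 markers, Ager, Hopx and Aqp5 among them, was 5164, 5247 and 2061 CPM in the sham libraries and 3710, 3736 and 778 CPM in the PNX libraries. Like Hey1, it was lowest in PNX replicate 3, next lowest in sham replicate 3 and highest in the re-used sham libraries. With the block all 7 markers had negative log2 fold changes (median -0.97) and 2 of them were called lower. The alveolar type 2 markers summed to 5700 CPM in the re-used and 6073 CPM in the replicate 3 sham sample, unlike Hey1. Of the 8 aerocyte capillary markers, Fibin and Apln had the order of Hey1. Fibin measured 113 and 54.2 CPM in the re-used and replicate 3 sham samples, and 76.7 and 29.2 CPM after PNX. For Apln these values were 97.1 and 64.2 CPM in sham, and 72.3 and 51.0 CPM after PNX. Their blocked log2 fold changes were -0.72 (adjusted p = 0.00338, edgeR) and -0.38 (adjusted p = 0.0167, edgeR), while 2 of the 8 had positive values. The 15 endothelial markers together added up to 15587, 15749 and 12547 CPM in the sham libraries and to 12495, 12512 and 11290 CPM after PNX, with 0 of them called and a median log2 fold change of -0.17 with the block. Of these 15, Erg, Esam and Egfl7 had the order of Hey1 across the samples, and the others did not. The 8 general capillary markers together measured 6218, 6252 and 4593 CPM in the sham libraries and 4296, 4288 and 3662 CPM after PNX, and 1 of them, Edn1, was called lower. The 10 arterial markers, a list that holds Hey1 itself, ran from 1375 to 1638 CPM in the sham libraries and from 1295 to 1542 CPM after PNX, with none called. By sample they summed to 1637 CPM in the re-used and 1375 CPM in the replicate 3 sham sample. After PNX the sums were 1533 and 1295 CPM, which is the order of Hey1. Single arterial markers went both ways with the block. Mecom (log2 fold change -0.64) and Efnb2 (-0.53) were lower at an adjusted p under 0.05 (edgeR), which 21.6% of all genes passed. Of the 10, 4 had positive values, Gja4 (0.38, adjusted p = 0.0510, edgeR) among them. The part of these markers' cells in the levels of Hey1, Hes1 or Dll4 was not tested.

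**Figure D4:**
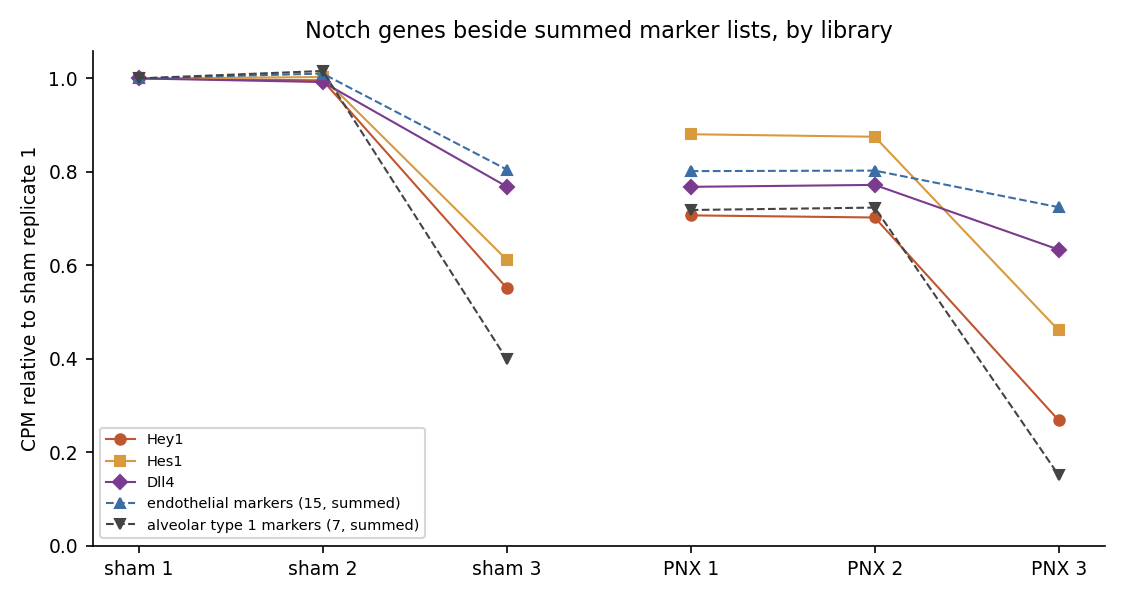
Levels of Hey1, Hes1, Dll4 and of the summed endothelial (15 genes) and alveolar type 1 (7 genes) markers are drawn by library as CPM relative to sham replicate 1 (vertical axis from 0, lines join libraries of a group). Hey1 and the alveolar type 1 markers reach their lowest values in PNX replicate 3, while the endothelial markers stay within a narrower range.

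Other marker lists gave the surroundings of these values. With the replicate block, 6 of 7 airway secretory, 5 of 6 ciliated and 3 of 10 alveolar type 2 markers were called lower after PNX, against 1.23% of all genes called lower and 5.12% called in either direction. Called higher were 5 of 10 fibroblast, 4 of 7 mesothelial, 4 of 9 macrophage and 1 of 10 smooth muscle and pericyte markers, and all 10 genes of the cell division list. Among neuroendocrine markers 3 of the 5 tested were called higher, and 1 neutrophil and 1 platelet marker were. No aerocyte, lymphatic, T cell or B cell marker was called. Their part in the levels of the Notch genes was not tested.

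Ratios between Notch genes within a library do not depend on how libraries are scaled. These ratios were chosen after their values were seen. The ratio of Dll4 to Jag1, per transcript length, was 4.01, 4.14 and 3.97 in the sham libraries and 3.49, 3.39 and 3.23 in the PNX libraries, lower in every PNX library. Jag2 to Jag1 was 1.73, 1.80 and 1.55 in sham and 2.09, 2.05 and 1.93 in PNX, higher in every PNX library. Hes1 to Hey1 was 1.10, 1.11 and 1.22 in sham and 1.37, 1.37 and 1.89 in PNX. Of the 45 pairs of Notch genes, 17 had ratios that did not overlap between the PNX and sham samples, while 45.3% of all pairs of tested genes did, so such a ratio is no rarer among other genes.

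The wider Notch pathway was read from a list of 52 further genes. Of these, 48 were tested. Dll3, a ligand-like inhibitor, had 0 reads in every library, and Dner, Hes3 and Hes5 had too few reads, at most 16 in any library. Without the block 0 of the 48 were called, and 4 had an unadjusted p under 0.05, against 2076 of all 16598 genes. With the block 2 of the 48 were called, Dlk1 higher and Hes2 lower, a share no higher than the 5.12% of all genes called in that fit. Of the 48 genes, 20 had a positive log2 fold change, and the median was -0.04, against -0.01 over all genes.

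Dlk1, a delta-like protein without the Notch-activating domain of the classical ligands and known from preadipocytes and fetal mesenchyme, had 1, 3 and 0 reads in the sham libraries and 50, 43 and 16 reads in the PNX libraries, counted on 1 of its 5 transcripts. Every PNX library was above every sham library. Scaled for depth and summed over libraries the PNX level was 29.5 times that of sham (95% exact interval 11.2 to 110, counting error only). In replicate 3, where sham had 0 reads, it was at least 6.14-fold higher, against a floor of 3 counts in that library. The blocked edgeR fit, which used the sum of the transcripts, gave Dlk1 a log2 fold change of 4.97 (SE 0.46, adjusted p = 0.000497), a value that depends on the prior count. The sum appears to count the same reads on each of the 5 transcripts. The SE, the adjusted p and the call of Dlk1 may therefore look more certain than its reads allow. No blocked fit on 1 transcript was run. Without the block the adjusted p of Dlk1 was 0.112 (edgeR), and DESeq2 with the block gave 0.0112, short of a call. The 10 fibroblast markers summed to 1384 to 1625 CPM in the sham libraries and to 4187 to 5389 CPM after PNX. Among them Col1a1, Col1a2, Col3a1, Dcn and Lum were called higher, while Pdgfra (-0.49) and Tcf21 (-0.34) had negative log2 fold changes with the block. Within PNX the fibroblast sum was highest in replicate 3. Dlk1, summed over its 5 transcripts, measured 2.64 CPM there, against 3.35 and 3.14 CPM. With 16 reads on 1 transcript in that library, this difference in Dlk1 was not tested against counting error. The part of fibroblasts in the level of Dlk1 was not tested.

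Hes2, a member of the Hes repressor family, had 67, 52 and 22 reads in the sham libraries and 17, 11 and 3 reads in the PNX libraries. It was lower in every PNX library than its sham counterpart and the CPM of the groups did not overlap (sham 0.648 to 0.842 CPM, PNX 0.102 to 0.228 CPM). Its log2 fold change with the block was -2.14 (SE 0.39, adjusted p = 0.00908, edgeR). Its adjusted p (edgeR) lay between 0.0122 and 0.0229 when any 1 of the 4 re-used libraries was left out, and was 0.0275 with scaling to the endothelial markers.

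By role, and at an adjusted p under 0.05 at any fold change with the block (edgeR), 9 of the 48 genes passed, 3 higher and 6 lower, against the background of 21.6%. Of the 11 genes of the nuclear complex, 4 passed and all 4 were lower. These were Maml1 (log2 fold change -0.29), Maml2 (-0.45) and Maml3 (-0.34), coactivators of the complex of Notch and Rbpj, and the histone acetyltransferase Ep300 (-0.38). Scaled to the endothelial markers, these 4 kept negative values, from -0.21 for Maml2 to -0.04 for Maml1, and none passed (adjusted p from 0.245 to 0.762, edgeR). Rbpj itself had a log2 fold change of 0.07 (adjusted p = 0.595, edgeR), and Ctbp1, the gene of this role with the highest TPM summed over transcripts, one of 0.06. Of the 9 proteases, which cut the receptor or its precursor, none passed and 7 had positive values, with Adam17 at 0.20 and Ncstn, a subunit of gamma-secretase, at 0.09. Adam17 had the highest TPM of this role only as a sum over 5 transcripts, on each of which the same reads may be counted, while Ncstn has 1 transcript.

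Of the 14 genes of endocytosis and turnover, Numbl (0.42) and Neurl1b (0.52) passed as higher and the ubiquitin ligase Mib2 (-0.32) as lower, while Numb, with the highest TPM summed over its 6 transcripts, had a value of -0.24 and did not pass. None of the 5 glycosyltransferases, which add sugars to the receptors, passed, and Mfng, the most abundant, had a log2 fold change of -0.04. Egfl7, an EC-secreted protein that binds Notch and the ligand-like gene with the highest TPM summed over its 4 transcripts, measured 2510, 2525 and 1783 CPM in the sham libraries and 1824, 1855 and 1554 CPM in the PNX libraries, a blocked log2 fold change of -0.33 (adjusted p = 0.119, edgeR). Notch3, the receptor of pericytes and smooth muscle, had log2 ratios of 0.31 in the re-used and -0.59 in the replicate 3 samples. Of the other targets tested, Hes6, the most abundant per length, had a log2 fold change of -0.04 (adjusted p = 0.835, edgeR) and only Hes2 passed.

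**Figure D5:**
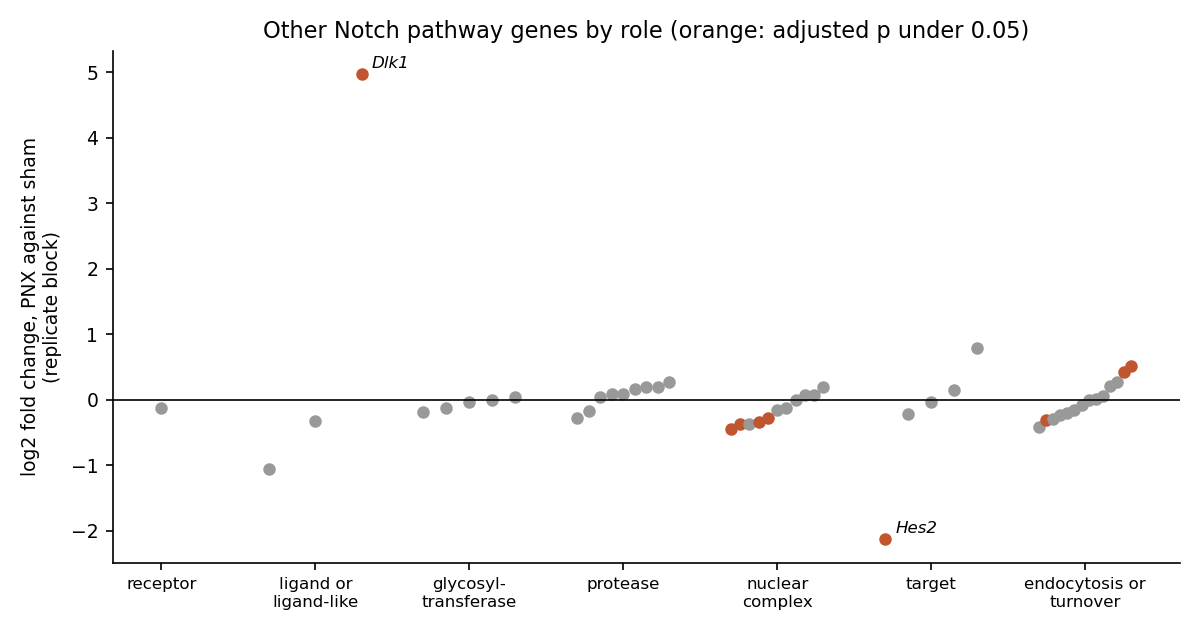
Each point is the log2 fold change (PNX against sham, replicate block) of 1 of the 48 other Notch pathway genes tested, placed by role, and orange points passed at an adjusted p under 0.05. Dlk1 at 4.97 and Hes2 at -2.14 stand apart, and 4 of the 11 nuclear complex genes are orange, all below 0.

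The genes most like Hey1, the Notch gene with the largest change, were sought among 14773 genes by the root mean square distance on log2 CPM centred on the gene mean, over the 4 samples. They were Ccdc160 (distance 0.0453), 2310007B03Rik (0.0540), Gprc5a (0.0651), Nebl (0.0659) and Irx1 (0.0740). Ccdc160, the nearest, measured 2.56 CPM in the re-used and 1.47 CPM in the replicate 3 sham sample, and 1.95 and 0.678 CPM in the PNX samples. In the same order 2310007B03Rik measured 26.5, 14.5, 17.0 and 6.91 CPM, and Nebl 46.9, 27.1, 33.6 and 11.6 CPM. Gprc5a, a receptor of lung epithelium, measured 160 CPM in the re-used and 86.5 CPM in the replicate 3 sham sample, and 124 and 43.5 CPM in the PNX samples. Irx1, a homeobox gene of lung epithelium, measured 17.7 and 8.86 CPM in the sham samples, against 10.9 and 4.40 CPM after PNX. Being chosen for their likeness over the same 4 samples, these genes carry no test.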

How the data were processed

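RNA of CD31+ mouse lung cells was measured in 3 sham and 3 PNX libraries, grouped by the treatment in the labels. The submitters' processing notes name STAR and mm10, and the study's methods name the Basepair platform for counting. For the aligner's version, for the counting rule and for the annotation release, no statement was found, and they count as not given in the sources used here. Per RefSeq transcript, the authors deposited whole-number counts, FPKM (scaled by transcript length and library) and TPM. The FPKM that the authors deposited served for ratios between genes, and the deposited TPM for levels between genes; neither was tested. Counts of 33068 transcripts were summed to 24063 symbols. Reads shared by transcripts appear to be counted on each of them: PNX replicate 1 held 250 counts for Dlk1 as the sum of 5 transcripts and 50 on 1 of them. Summed CPM and TPM of genes with several transcripts, and marker sums that hold such genes, may therefore count the same reads repeatedly, as may the library totals. The 10 Notch genes have 1 transcript each.

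The 10 genes and all gene lists were chosen with earlier results of these data known. Replicates were compared by a chi-square over single-transcript genes whose pair held at least 20 counts, and replicates 1 and 2 were summed. The test was edgeR's quasi-likelihood test (version 4.0.16, R 4.3.3) after filterByExpr and TMM scaling, by glmQLFit and glmQLFTest, with Benjamini-Hochberg adjustment over every gene that passed the filter. Alternatives were limma 3.58.1 (voom) and DESeq2 1.42.0 (Wald test). The procedure was tested on simulated data. Standard errors were derived from each gene's log2 fold change and its F statistic, as the former over the latter's square root. CPM uses TMM-scaled library sizes. Without the block, p-values on the 4 samples measure the spread between 2 samples per group, each of pooled mice. With the block they measure how far the PNX difference varies between the re-used and the replicate 3 pair. Fits on 6 libraries count replicates 1 and 2 as separate samples, although these differed by little more than counting error. Intervals from counts cover counting error only.

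The pairing comes from the labels, which mark replicates 1 and 2 of both groups as re-used. Over 14156 genes the difference between the re-used and the replicate 3 samples in sham correlated with that in PNX (r = 0.732 by Pearson, rho = 0.745 by Spearman, across genes, which are not independent replicates), and the common biological coefficient of variation was 0.236 without and 0.0973 with the replicate block. With the block, 1 residual degree of freedom remains per gene, before edgeR's sharing of information between genes.

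All 10 genes are named. Of the 52 other pathway genes, those called with the block, the most abundant per length in each role and those not tested are named by rule, and others passing at 0.05 were named after their values were seen. Likeness was computed for genes with a mean count of at least 50 from log2 CPM computed with 2 as the prior count. Alternatives covered the block, 6 separate libraries, the tool, the scaling, the filter on low counts (none, or at least 10 counts in every library), the transcript used, the threshold and each library left out.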

Additional observations from a re-analysis of the deposited data

Results flagged for a closer look

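For 3 of the 10 Notch genes, the PNX samples moved in opposite directions against sham in the re-used and in the replicate 3 samples, with 1 sample on each side, so that the difference was not tested. The log2 ratio of PNX to sham was higher in replicate 3 than in the re-used samples by 0.75 for Dll1, by 0.39 for Notch4 and by 0.15 for Jag1. Among the other Notch pathway genes, 13 of the 47 that could be compared had opposite signs, Heyl among them with log2 ratios of 0.63 and -0.42.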

How the results depend on the processing

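Of the 10 Notch genes 0 were called in each of 31 alternatives, and Hey1 and Dll4 kept a negative log2 fold change in all 31. The replicate block moved the calls over all genes from 0 to 849 and those of the other Notch pathway genes from 0 to 2. Without the block, limma-voom, each other scaling, both other filters and the transcript with the highest total called 0 of all genes. In those fits 0 of the 10 Notch genes had to follow and carries no information. Other alternatives without the block gave 409 genes with 6 libraries, 587 with DESeq2 and 927 with DESeq2 on 6 libraries, with 1, 1 and 2 pathway genes. With the block the counts were 920 with 6 libraries, 813 with DESeq2, 921 with limma-voom, 624, 646, 629 and 709 with median-of-ratios, upper-quartile, library-size and endothelial marker scaling, and between 1 and 2 pathway genes except for DESeq2 with 0. At an adjusted p under 0.05 they were 1186 with the block and 888 with 6 libraries, each with 2 pathway genes. Leaving out a library gave 0 to 2 genes and 0 pathway genes without the block, the highest without PNX replicate 3. With the block it gave 485 to 863 genes, 485 without PNX replicate 1, and 1 pathway gene. Blocked fits without a replicate 3 library leave no residual degree of freedom and could not be fitted.

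Endothelial marker scaling put the median of all genes at 0.22 (0.23 with the block), and 7 of the 10 genes were then positive. It reversed Dll1 (0.080, and 0.10 with the block), Jag1 (0.18 and 0.18), Notch1 (0.031 and 0.024) and Notch2 (0.025 and 0.069). Leaving out sham replicate 3 reversed Jag2 (-0.020), Notch2 (0.31), Notch4 (-0.11) and Nrarp (-0.16), and leaving out PNX replicate 3 reversed Hes1 (0.12) and Jag1 (0.030). Without the re-used sham sample Dll1 (0.34), Hes1 (0.12) and Jag1 (0.10) reversed, and without the re-used PNX sample Notch2 (0.16) and Nrarp (-0.15). Over the libraries left out singly, the log2 fold change ran from -0.56 to 0.12 for Hes1, from -0.21 to 0.030 for Jag1, from -0.61 to 0.31 for Notch2 and from -0.16 to 0.28 for Nrarp. The cause of these reversals was not tested, and a lone sample left in a group is assumed to vary like the other group. DESeq2 and limma-voom with the block, the fits without a re-used sample, the blocked fits without 1 re-used library, and the threshold of 0.05 with the block or 6 libraries were chosen after seeing the data. Counts of 655 or more per library put little limit on the 10 genes; no comparison ranked the other limits, such as 2 samples per group, the scaling or the mixed cells.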
